A study of Danio rerio with 20 samples.

Results

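The proteasome genes of zebrafish larvae were compared between 4 genotypes. Members were every gene whose symbol starts with psma, psmb, psmc, psmd, psme, psmf or psmg followed by a digit, together with adrm1, sem1 and pomp. This rule found 62 of the 32520 gene IDs in the count table. By role, 10 belong to the alpha ring of the core, 7 to its constitutive beta ring, 7 are inducible or tissue-specific core subunits, 7 are ATPases of the base, 6 are other base subunits, 10 belong to the lid, 6 are activators or inhibitors and 7 are assembly factors. The remaining 2, psmc3ip (a cofactor of meiotic recombination in mammals) and psme3ip1 (a partner of the activator psme3 in mammals), matched the name rule but encode no subunit. The symbols psma6, psmd2, psmd11 and psme4 are each carried by a pair of IDs, which are printed with the ID.

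RNA was sequenced from larvae of the Tg(fli1:EGFP) line, whose endothelial cells carry green fluorescent protein. The groups were wild type, aldh3a1 knockout (labelled ALDH3A1KO), glo1 knockout (GLO1KO) and the double knockout (DKO, glo1-/-aldh3a1-/-), with 5 libraries each. No source used here says whether these came from separate clutches, so p-values measure only the spread between libraries, which may be technical. glo1 encodes the first enzyme of the glyoxalase system, which removes the reactive sugar breakdown product methylglyoxal, and aldh3a1 encodes an aldehyde dehydrogenase. The double mutants were made with CRISPR/Cas9. All groups share the transgene, while no source used here gives the larval age, the founders of each line or the number of larvae per library. The title of the series links the double knockout to raised MG-H1, a methylglyoxal adduct on proteins, and to lower proteasome activity. Transcript counts do not measure that activity.

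The 26S proteasome degrades proteins that carry ubiquitin chains. Its barrel-shaped core is built from alpha rings, which form the gate, and beta rings, which hold the proteolytic sites. A regulatory particle caps the barrel: its base recognises ubiquitin and unfolds substrates with a ring of ATPases, and its lid removes the ubiquitin chain. Dedicated assembly factors help to build the core and the base and leave the mature complex. The subunits are needed in fixed proportions, and in mammals the transcription factor NFE2L1 raises their genes together when proteasome activity falls short.

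Each library held 35092716 to 37190519 counts, and 57 of the 62 members passed the filter on low counts among 22234 genes tested. Members took 0.313% ± 0.0108 of all counts in wild type (SD, n = 5), 0.309% ± 0.0236 in aldh3a1 knockouts, 0.296% ± 0.00740 in glo1 knockouts and 0.276% ± 0.0125 in double knockouts. glo1 itself measured 62.2 to 71.4 CPM (counts scaled to a common library size) in wild type and 74.9 to 81.7 CPM in aldh3a1 knockouts, against 3.28 to 4.22 CPM in glo1 knockouts and 3.38 to 5.35 CPM in double knockouts. No gene ID in the count table was matched to the symbol aldh3a1. Its counts were therefore not analysed, and the label of its knockout was not checked on its target. All CPM values and changes below use TMM scaling, which sets the bulk of genes equal between libraries, so that the median change of all genes was 0.00, -0.01 and 0.01 (log2) in the aldh3a1, glo1 and double knockouts against wild type. Scaling to the library size alone moved these medians by -0.11, -0.10 and -0.15, and the share of higher genes among all called genes from 47.9% to 36.0%, from 44.6% to 21.9% and from 47.5% to 23.7%.

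Within a genotype, members tended to be high or low in the same library. The fifth wild type library held the lowest wild type value for 41 of the 57 tested members, with a median of -0.12 (log2) from its genotype's mean. The third aldh3a1 knockout library held the highest value of its genotype for 32 of 57 members (median 0.10), and the second double knockout library for 29 (median 0.07). The fourth double knockout library was lowest for 26 (median -0.07).

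**Figure D1:**
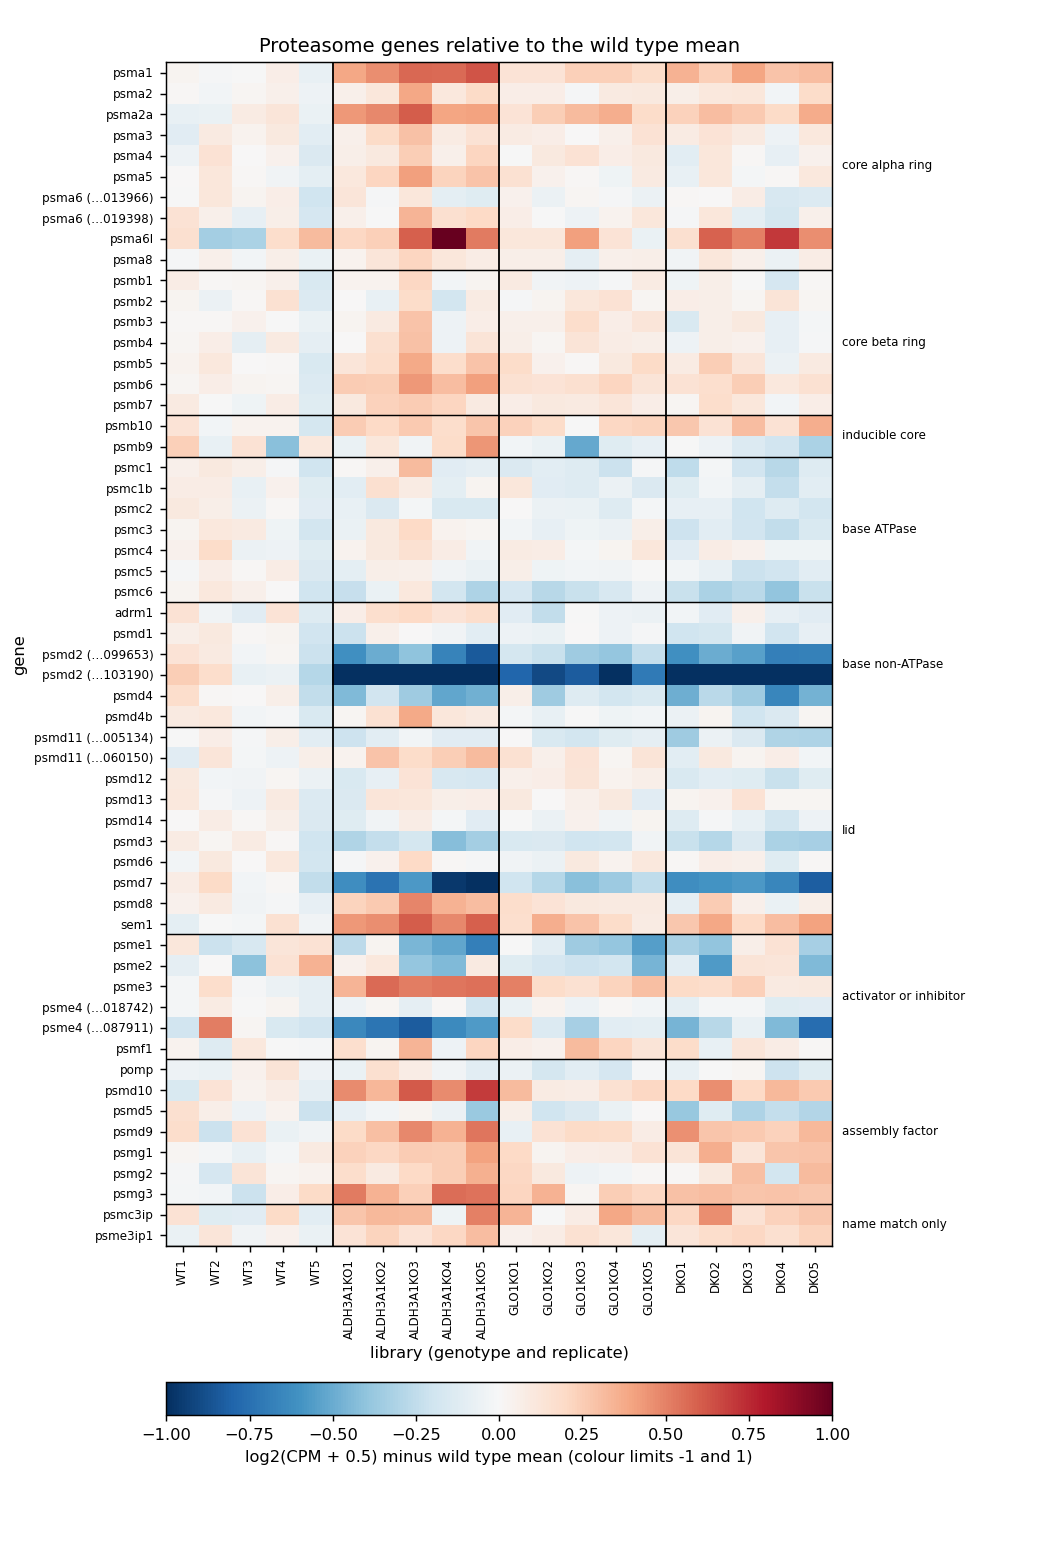
Each tested proteasome gene (vertical axis, grouped by role) in each of the 20 libraries (horizontal axis), as log2(CPM + 0.5) minus the wild type mean, with colours ending at -1 and 1. The blue rows of both psmd2 copies and psmd7 extend over the 3 knockout genotypes, while psma1, psma2a, sem1 and psmg3 are red there, most deeply in aldh3a1 knockouts.

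In aldh3a1 knockouts many core genes and most assembly factors were represented more, and a few base and lid subunits less, than in wild type. Of the 57 tested members, 25 rose and 7 fell (edgeR adjusted p under 0.05, the threshold used throughout), where 29.4% of all genes rose and 32.0% fell. The median change of the members was 0.11 (log2), against 0.00 over all genes. Of the alpha ring, 8 of 10 genes rose and 0 fell, and of the constitutive beta ring 3 of 7 rose and 0 fell. The calls of psma2, psma3, psma4 and psma8 were each lost without the third aldh3a1 knockout library. Those of psma5, psmb5 and psmb7 were lost with library size alone. Of the 7 assembly factors, 5 rose and 0 fell. The 7 base ATPases did not pass, at changes between -0.13 and 0.06, the lowest adjusted p being that of psmc2 (0.0601). With library size alone as the scale, 11 members rose and 14 fell, so that the balance between both directions turned. The share of higher genes among all called genes then moved from 47.9% to 36.0%. Upper quartile scaling gave 17 higher and 11 lower members, and the share of higher genes among all called genes was 42.6% instead of 47.9%.

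In glo1 knockouts fewer proteasome genes moved. Of 57 members, 6 rose and 3 fell, against 14.6% and 18.1% of all genes, and the median change was 0.03. The 6 that rose were the alpha subunits psma1 and psma2a, the beta subunit psmb6, the lid subunit sem1, the activator psme3 and the assembly factor psmg3. The 3 that fell were both psmd2 copies and psmd7. Under library-size scaling, 0 rose and 11 fell, while the share of higher genes among all called genes moved from 44.6% to 21.9%. Without the fifth wild type library, or without the fifth glo1 knockout library, 5 fell.

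In double knockouts, members were called no more often than all genes in either direction, and differences between roles were not tested. Of 57 members, 11 rose and 14 fell, against 23.9% and 26.4% of all genes, with a median of -0.01. In the base, 4 of 7 ATPases and 4 of 6 other subunits fell and 0 rose in either set. The other subunits include both psmd2 copies. The calls of psmc1, psmc2 and psmd1 were each lost without some single libraries, as given below. In the lid, 4 of 10 fell and 1 rose. In the core rings, 4 of 17 rose and 0 fell, and of the assembly factors 4 of 7 rose and 1 fell. When scaled by library size alone, 2 members rose and 27 fell, and none of the 4 assembly factor rises passed. The share of higher genes among all called genes then moved from 47.5% to 23.7%. The 3 comparisons with wild type share the same 5 wild type libraries.

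**Figure D2:**
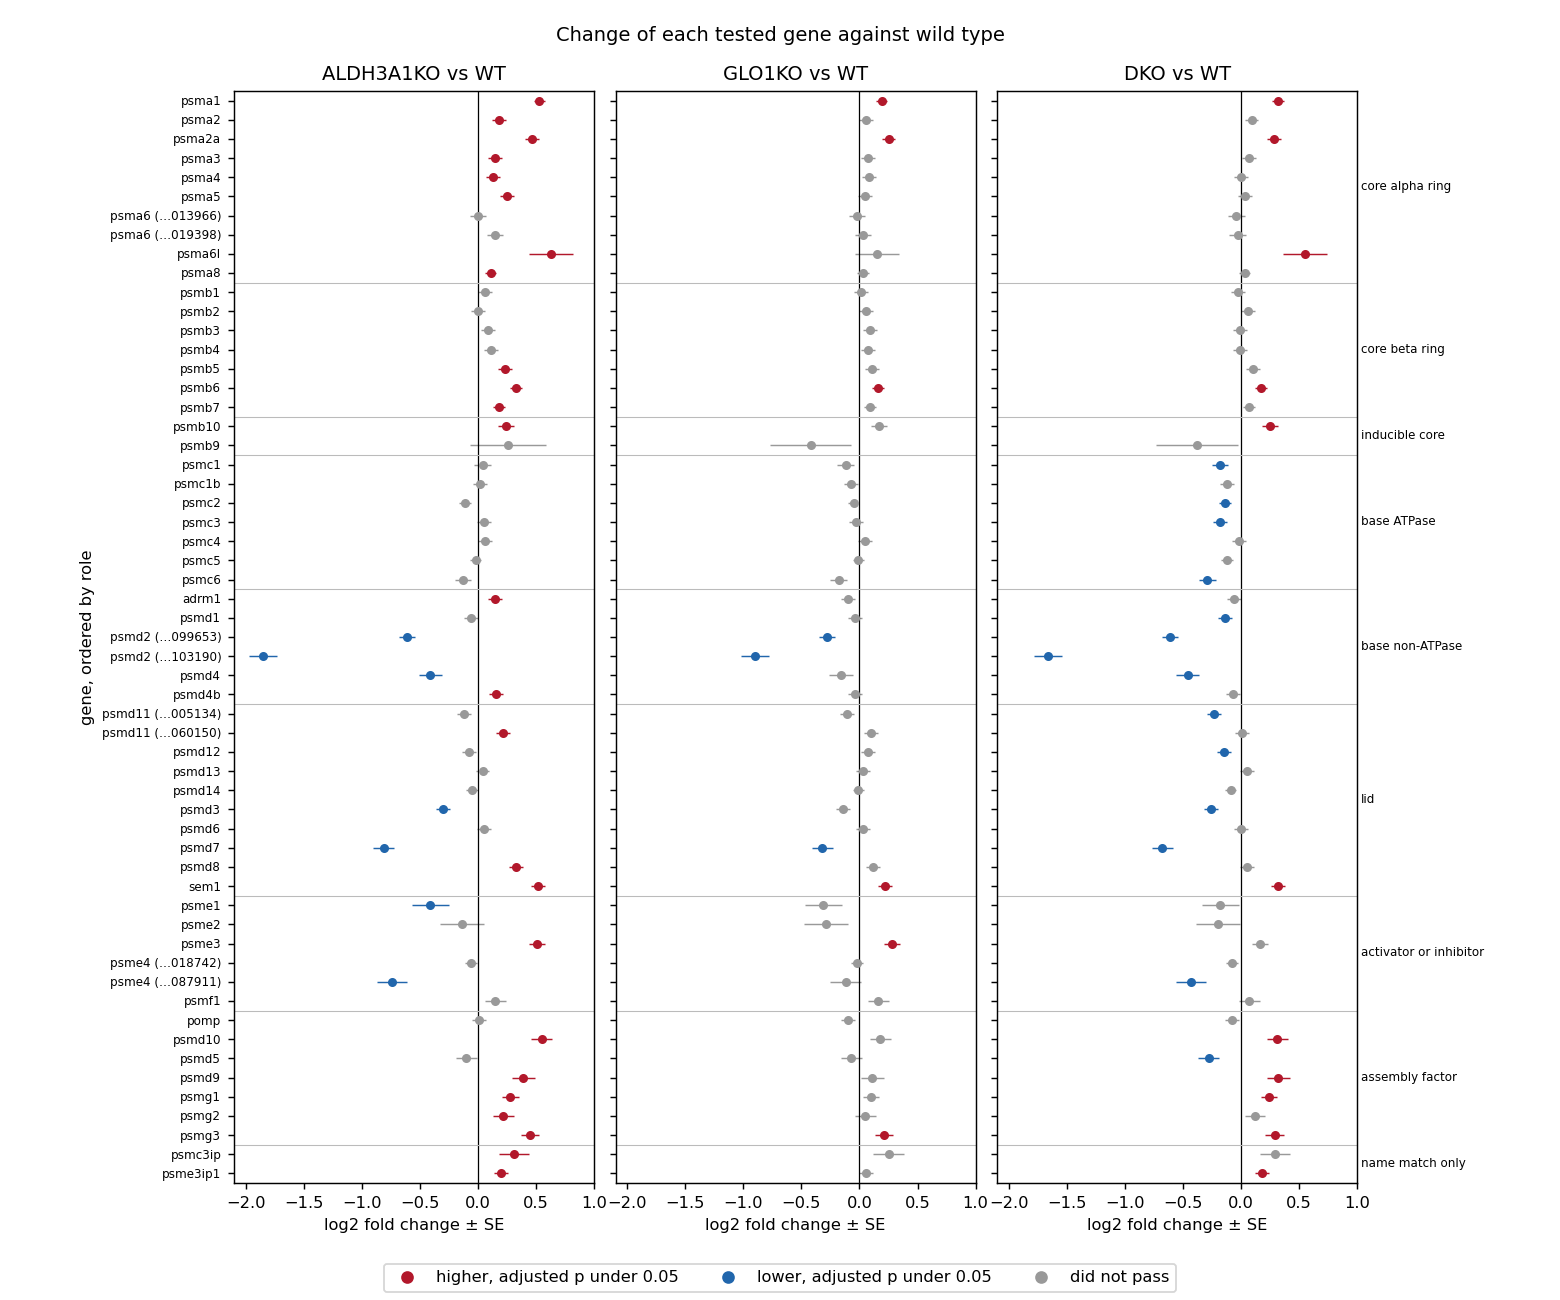
Change of each tested gene (vertical axis, by role) against wild type in aldh3a1, glo1 and double knockouts (log2 fold change ± SE, 5 libraries per genotype, TMM scaling). Most points lie within 0.3 of 0, and the copy psmd2 (ENSDARG00000103190) lies apart at -1.85, -0.90 and -1.66.

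Averaged over the genes of a role, core genes of both rings stood at 0.20 ± 0.08 (log2 CPM relative to the wild type mean; SD, n = 5 libraries) in aldh3a1 knockouts and at 0.09 ± 0.05 in double knockouts. Base ATPases stood at -0.01 ± 0.09 and -0.15 ± 0.05. Base subunits other than ATPases stood at -0.43 ± 0.10 and -0.49 ± 0.08, a mean that includes both psmd2 copies. Lid genes stood at -0.02 ± 0.07 and -0.10 ± 0.05, and assembly factors at 0.24 ± 0.04 and 0.13 ± 0.05. In glo1 knockouts the same 5 means were 0.09, -0.06, -0.24, 0.00 and 0.06. These means rest on TMM scaling and were not computed with library size alone. That scaling shifted the median of all genes by -0.11, -0.10 and -0.15 in aldh3a1, glo1 and double knockouts, which is as large as several of the means.

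**Figure D3:**
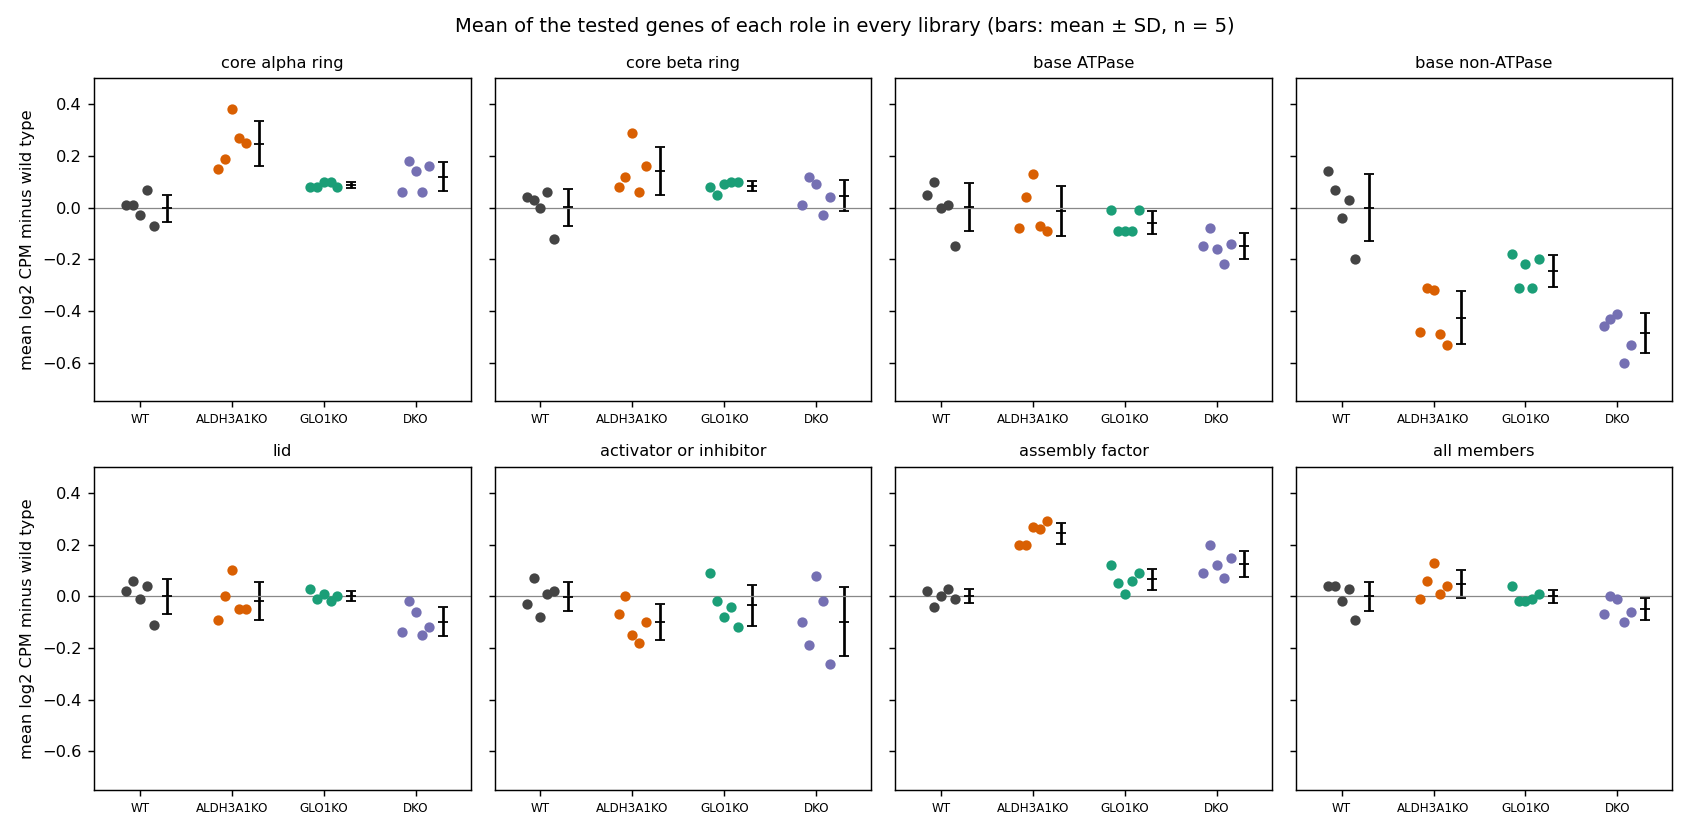
Mean log2 CPM of the genes of each role relative to wild type (vertical axes) in every library of the 4 genotypes, with bars for mean ± SD over 5 libraries. With TMM scaling, assembly factors run from 0.20 to 0.29 in aldh3a1 knockouts and from 0.07 to 0.20 in double knockouts. Both lie above the wild type range of -0.04 to 0.03.

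The base holds the ubiquitin receptors and the largest change of the family. psmd2, known as Rpn1 in yeast, is a scaffold on which shuttle factors and the deubiquitinase usp14 dock. The copy psmd2 (ENSDARG00000103190) measured 38.1, 36.4, 30.5, 30.7 and 26.2 CPM in wild type and 9.56, 10.8, 9.20, 7.78 and 7.65 CPM in aldh3a1 knockouts. It measured 18.3, 17.0, 17.8, 14.3 and 19.5 CPM in glo1 knockouts and 12.2, 10.5, 11.8, 8.50 and 8.39 CPM in double knockouts. All 15 knockout libraries lay below the lowest wild type library, and glo1 knockouts lay between wild type and both other genotypes without touching either. The changes were -1.85 (SE 0.12, edgeR adjusted p = 7.15e-11) in aldh3a1 knockouts, -0.90 (SE 0.12, adjusted p = 1.58e-05) in glo1 knockouts and -1.66 (SE 0.12, adjusted p = 1.75e-09) in double knockouts. In larvae, fewer cells of a type and less RNA per cell cannot be told apart, which holds for every change given here.

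The second copy, psmd2 (ENSDARG00000099653), moved the same way by less. It measured 55.3, 53.7, 49.4, 51.2 and 43.4 CPM in wild type and 32.7, 35.6, 38.0, 31.6 and 28.0 CPM in aldh3a1 knockouts. It measured 44.5, 43.1, 39.3, 38.5 and 42.7 CPM in glo1 knockouts and 32.9, 35.5, 34.5, 31.2 and 31.5 CPM in double knockouts. aldh3a1 and double knockouts overlapped each other and lay below all wild type libraries, while glo1 knockouts reached into the wild type range at the fifth wild type library. Its changes were -0.61 (SE 0.07, edgeR adjusted p = 1.99e-07), -0.28 (SE 0.07, adjusted p = 0.00551) and -0.61 (SE 0.07, adjusted p = 4.61e-07) in aldh3a1, glo1 and double knockouts.

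Because reads of the 2 copies may be shared by the counting, their sum was also compared. It was 83.0 ± 9.36 CPM in wild type, 42.2 ± 4.85 in aldh3a1 knockouts, 59.0 ± 4.11 in glo1 knockouts and 43.4 ± 3.33 in double knockouts (SD, n = 5 each). The sum was lower than in wild type by -0.98, -0.49 and -0.93 (log2), each with an exact two-sided permutation p = 0.00794, adjusted 0.00992 over 10 psmd2 tests, the smallest p that 5 against 5 libraries can give. Double knockouts were lower than glo1 knockouts by -0.44 (same exact p) and differed from aldh3a1 knockouts by 0.04 (exact p = 0.659). The share of the copy ENSDARG00000103190 in the counts of both fell from 38.9% ± 1.56 to 21.3% ± 1.68, 29.4% ± 1.85 and 23.6% ± 2.62 in the same order (exact p = 0.00794 each). Both the summed level and the mix of the copies therefore differed from wild type in all 3 knockout genotypes.

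**Figure D4:**
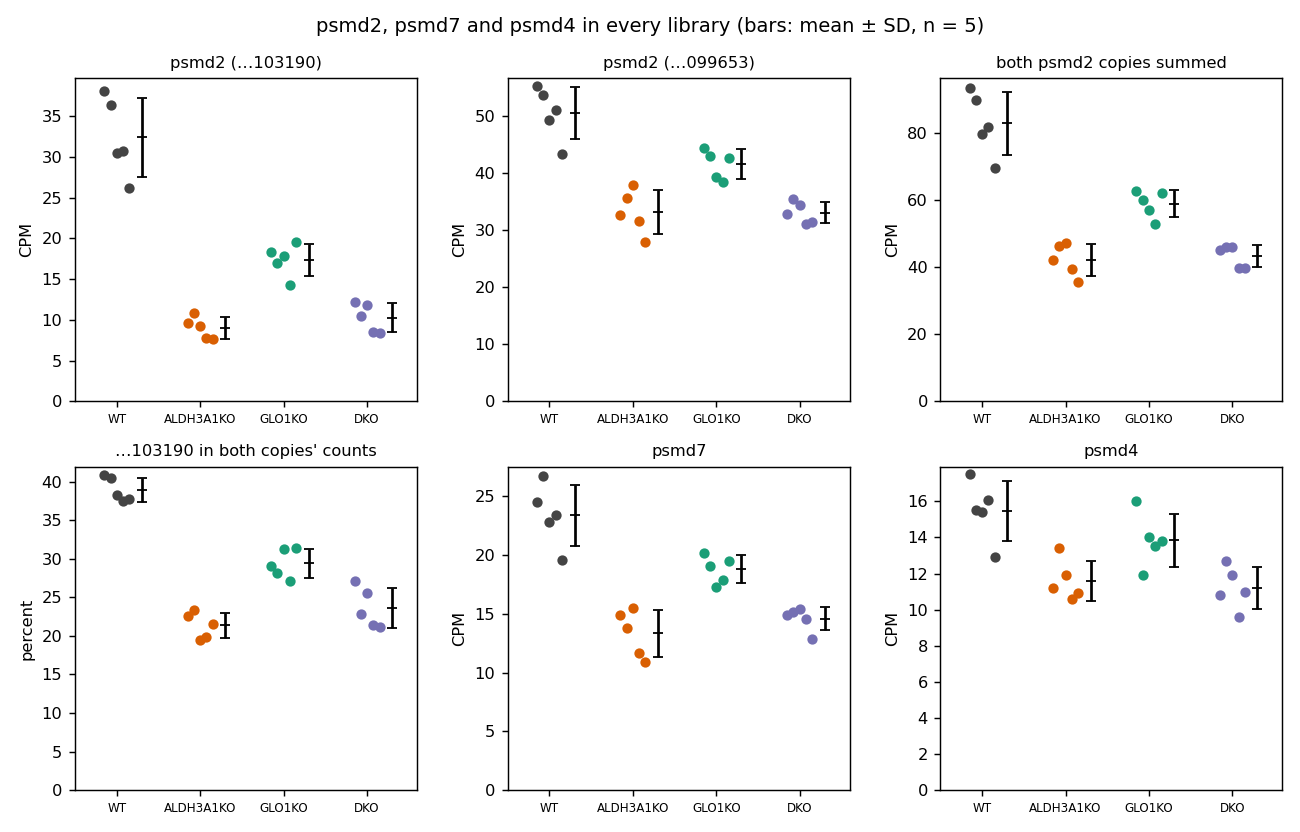
CPM of both psmd2 copies, psmd7 and psmd4, the summed psmd2 copies and the share of ENSDARG00000103190, for every library by genotype, with bars for mean ± SD of 5 libraries. The share runs from 37.5% to 40.8% in wild type, from 27.1% to 31.4% in glo1 knockouts, and from 19.5% to 27.1% in aldh3a1 and double knockouts.

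psmd4, the ubiquitin receptor called Rpn10 in yeast, measured 17.5, 15.5, 15.4, 16.1 and 12.9 CPM in wild type and 10.8, 12.7, 11.9, 9.61 and 11.0 CPM in double knockouts. It measured 11.2, 13.4, 11.9, 10.6 and 10.9 CPM in aldh3a1 knockouts and 16.0, 11.9, 14.0, 13.5 and 13.8 CPM in glo1 knockouts. Every double knockout library was below wild type, and the other genotypes overlapped with it. The changes were -0.41 (SE 0.10, edgeR adjusted p = 0.000605) in aldh3a1 knockouts, -0.46 (SE 0.10, adjusted p = 0.000283) in double knockouts and -0.16 (SE 0.10, adjusted p = 0.206) in glo1 knockouts. Its paralog psmd4b was more abundant, with a wild type mean of 46.4 CPM against 15.5 CPM for psmd4. The pair summed to 54.5 to 66.7 CPM in wild type and 58.3 to 72.3 CPM in aldh3a1 knockouts. This sum, which was not tested, ran from 55.9 to 61.8 CPM in glo1 and 51.6 to 59.9 CPM in double knockouts. psmd4b rose by 0.16 (SE 0.06, adjusted p = 0.0392) in aldh3a1 knockouts. That call was lost without the third library of that genotype (0.09, adjusted p = 0.180) and with library size alone (0.05). The scaffold psmd1 (Rpn2 in yeast) fell by 0.14 in double knockouts (SE 0.06, adjusted p = 0.0425) and lost the call without any of 7 single libraries. The receptor adrm1 (Rpn13 in yeast) was 0.15 higher in aldh3a1 knockouts (adjusted p = 0.0400), which was lost without any of 6 single libraries.

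Of the 7 ATPases of the base, 4 fell in double knockouts, by small amounts, where 26.4% of all genes fell. psmc6 measured 66.9, 70.6, 67.9, 65.8 and 57.0 CPM in wild type and 56.0, 52.6, 54.2, 49.7 and 56.0 CPM in double knockouts, with no overlap. It fell by 0.29 (SE 0.07, edgeR adjusted p = 0.00117). psmc3 fell by 0.18 (SE 0.06, adjusted p = 0.00931), from 88.5 to 108 CPM in wild type to 84.7 to 93.5 CPM in double knockouts, with overlap at the fifth wild type library. psmc1 fell by 0.18 (SE 0.07, adjusted p = 0.0442) and psmc2 by 0.14 (SE 0.05, adjusted p = 0.0249); these calls were lost without any of 8 and any of 4 single libraries. The remaining ATPases psmc1b (-0.12), psmc4 (-0.02) and psmc5 (-0.12, adjusted p = 0.0538) did not pass. All 7 ATPase estimates were negative in double knockouts, as were 10829 of 22234 over all genes. Members tended to be high or low in the same library, so these 7 signs are not separate results.

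In the lid, 1 subunit carried the main decrease. psmd7 (Rpn8 in yeast) pairs with the deubiquitinase psmd14. It measured 24.5, 26.7, 22.8, 23.4 and 19.6 CPM in wild type and 14.9, 13.8, 15.5, 11.7 and 10.9 CPM in aldh3a1 knockouts. It measured 20.2, 19.1, 17.3, 17.9 and 19.5 CPM in glo1 knockouts and 14.9, 15.2, 15.4, 14.6 and 12.9 CPM in double knockouts. aldh3a1 and double knockouts lay below every wild type library and every glo1 knockout library. The changes were -0.81 (SE 0.09, edgeR adjusted p = 7.95e-08), -0.32 (SE 0.09, adjusted p = 0.0104) and -0.68 (SE 0.09, adjusted p = 1.96e-06) in aldh3a1, glo1 and double knockouts. Its partner psmd14, at -0.05, -0.01 and -0.09, did not pass in any of the 3 comparisons.

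psmd3 (Rpn3 in yeast) fell by 0.30 in aldh3a1 knockouts (SE 0.06, edgeR adjusted p = 9.99e-05) and by 0.26 in double knockouts (SE 0.06, adjusted p = 0.000589). Wild type spanned 96.7 to 118 CPM, with the fifth library lowest, and the knockouts 82.6 to 97.8 and 88.0 to 100.2 CPM. In double knockouts psmd12 (Rpn5 in yeast) fell by 0.15 (SE 0.06, adjusted p = 0.0300), lost without any of 5 single libraries. The copy psmd11 (ENSDARG00000005134; Rpn6 in yeast) fell by 0.23 there (SE 0.06, adjusted p = 0.00234). In aldh3a1 knockouts the other copy, psmd11 (ENSDARG00000060150), rose by 0.22 (SE 0.06, adjusted p = 0.00313), lost with library size alone (0.11).

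Against these stood sem1, the small acidic lid subunit. It measured 93.2, 99.5, 98.5, 111 and 97.1 CPM in wild type and 135, 138, 152, 139 and 151 CPM in aldh3a1 knockouts. It measured 112, 128, 122, 113 and 105 CPM in glo1 knockouts and 120.1, 131, 115, 123 and 132 CPM in double knockouts. aldh3a1 knockouts stood above all other libraries, and double knockouts stood above wild type. The rises were 0.52 (SE 0.06, edgeR adjusted p = 8.01e-08), 0.22 (SE 0.06, adjusted p = 0.00697) and 0.32 (SE 0.06, adjusted p = 0.000110); with library size alone the glo1 knockout value was 0.12 and did not pass. psmd8 (Rpn12 in yeast) rose by 0.33 in aldh3a1 knockouts (SE 0.06, adjusted p = 4.86e-05), while its values in glo1 and double knockouts, 0.12 and 0.05, did not pass. The lid subunits psmd6 and psmd13 lay between 0.00 and 0.05 in all 3 comparisons and did not pass.

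In the alpha ring, psma1 gave the clearest increase. It measured 75.2, 73.1, 73.7, 77.2 and 70.0 CPM in wild type and 96.7, 102, 110.0, 109 and 115 CPM in aldh3a1 knockouts. It measured 81.0, 81.2, 87.3, 87.0 and 83.9 CPM in glo1 knockouts and 93.8, 87.3, 96.9, 90.2 and 91.7 CPM in double knockouts. No knockout library reached down into the wild type range. The rises were 0.53 (SE 0.05, edgeR adjusted p = 5.18e-09), 0.19 (SE 0.05, adjusted p = 0.00647) and 0.32 (SE 0.05, adjusted p = 1.41e-05); with library size alone the glo1 knockout value was 0.09 and did not pass. psma2a rose by 0.47 (SE 0.06, adjusted p = 3.92e-07), 0.25 (SE 0.06, adjusted p = 0.00264) and 0.28 (SE 0.06, adjusted p = 0.000517), from 32.2 to 37.0 CPM in wild type to 44.8 to 51.9, 37.4 to 43.8 and 38.9 to 44.2 CPM. With library size alone its values in glo1 knockouts (0.15) and double knockouts (0.12) did not pass.

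psma6l, a gene named for its likeness to psma6, measured 2.74, 1.80, 1.83, 2.78 and 3.12 CPM in wild type and 2.86, 2.92, 3.90, 5.65 and 3.66 CPM in aldh3a1 knockouts. It measured 2.64, 2.64, 3.36, 2.69 and 2.27 CPM in glo1 knockouts and 2.74, 3.87, 3.62, 4.24 and 3.51 CPM in double knockouts. The genotypes overlapped throughout, with both the second and the third wild type library low. The change was 0.63 (SE 0.19, edgeR adjusted p = 0.00577) in aldh3a1 knockouts and 0.55 (SE 0.19, adjusted p = 0.0183) in double knockouts. The latter did not pass without the second wild type library (0.45, adjusted p = 0.0582), the third (0.46, adjusted p = 0.0555) or the fourth double knockout library (0.48, adjusted p = 0.0526), nor with library size alone (0.39).

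In aldh3a1 knockouts psma5 rose by 0.25 (SE 0.06, edgeR adjusted p = 0.000647), which library size alone brought to 0.15 and did not pass. psma2, psma3, psma4 and psma8 (for which a RefSeq gene table lists psma7 as a synonym) were 0.11 to 0.18 higher, with adjusted p between 0.0120 and 0.0479. Each of these 4 calls was lost without the third aldh3a1 knockout library, at psma2 (0.12, adjusted p = 0.0632), psma3 (0.12, adjusted p = 0.0834), psma4 (0.11, adjusted p = 0.132) and psma8 (0.09, adjusted p = 0.134). Both psma6 copies, ENSDARG00000013966 at 0.00 and ENSDARG00000019398 at 0.15, did not pass.

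The beta ring carries the proteolytic sites on psmb5, psmb6 and psmb7, and these were its 3 called members in aldh3a1 knockouts. psmb6 measured 71.2, 73.3, 71.2, 71.0 and 63.8 CPM in wild type and 83.5, 83.1, 94.7, 86.9 and 93.3 CPM in aldh3a1 knockouts. It measured 77.9, 77.2, 78.4, 81.1 and 76.5 CPM in glo1 knockouts and 77.5, 78.9, 83.1, 75.5 and 78.1 CPM in double knockouts. All knockout libraries were above all wild type libraries. The rises were 0.33 (SE 0.05, edgeR adjusted p = 3.48e-06), 0.16 (SE 0.05, adjusted p = 0.0176) and 0.17 (SE 0.05, adjusted p = 0.00797). Under library-size scaling psmb6 stood at 0.06 in glo1 knockouts and 0.01 in double knockouts, neither of which passed, and the glo1 knockout call was also lost without the fifth wild type library (0.13, adjusted p = 0.0590).

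psmb5, the chymotrypsin-like site, rose by 0.23 in aldh3a1 knockouts (SE 0.06, edgeR adjusted p = 0.00224). psmb7, the trypsin-like site, rose by 0.18 there (SE 0.05, adjusted p = 0.00476). Both calls were lost with library size alone, at 0.13 for psmb5 and 0.07 for psmb7. The structural subunits psmb1, psmb2, psmb3 and psmb4 lay between 0.00 and 0.11 in aldh3a1 knockouts and between -0.03 and 0.06 in double knockouts, and none of these 4 passed in either.

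Immune cells and interferon swap the catalytic beta subunits for psmb8, psmb9 and psmb10, forming the immunoproteasome. These transcripts were scarce in the larvae, apart from psmb10. psmb10 measured 15.3, 13.6, 14.2, 14.3 and 12.3 CPM in wild type and 16.7, 16.0, 16.8, 15.8 and 17.0 CPM in aldh3a1 knockouts. It measured 16.4, 15.9, 13.9, 16.1 and 16.4 CPM in glo1 knockouts and 16.9, 15.4, 17.4, 15.4 and 18.1 CPM in double knockouts. Both aldh3a1 and double knockouts lay above wild type, and in glo1 knockouts the third library alone fell into the wild type range. The rises were 0.24 (SE 0.07, edgeR adjusted p = 0.00635) in aldh3a1 knockouts and 0.25 (SE 0.07, adjusted p = 0.00532) in double knockouts; with library size alone they were 0.14 and 0.10 and did not pass. The glo1 knockout value was 0.17 (adjusted p = 0.0702).

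psmb9 held 4 to 23 counts per library. Its changes of 0.26 (SE 0.33), -0.42 (SE 0.35) and -0.38 (SE 0.35) in aldh3a1, glo1 and double knockouts did not pass, and at this depth a change of that size was not detectable. psmb8 held 0 to 4 counts, psmb12 2 to 20 and psmb13a 0 to 8, and psmb11, which in mammals marks the thymus, 0 to 4. psmb11b held 1 count in all 20 libraries together. These 5 genes did not pass the filter and were not tested; a count of 0 in a library allows up to 3 counts, which is 0.0743 to 0.0901 CPM.

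Activators open the core gate in place of the regulatory particle. psme3, which forms the nuclear activator PA28 gamma, measured 25.2, 28.9, 25.3, 24.5 and 24.0 CPM in wild type and 32.5, 38.0, 36.7, 37.2 and 37.6 CPM in aldh3a1 knockouts. It measured 36.5, 29.1, 28.4, 29.8 and 31.6 CPM in glo1 knockouts and 29.3, 28.8, 30.3, 27.1 and 27.3 CPM in double knockouts. aldh3a1 knockouts stood clear of wild type, while the other knockouts overlapped with the high second wild type library. The rises were 0.51 (SE 0.07, edgeR adjusted p = 8.53e-07) and 0.28 (SE 0.07, adjusted p = 0.00340) in aldh3a1 and glo1 knockouts, the latter at 0.18 and not passing with library size alone. In double knockouts the value was 0.16 (SE 0.07, adjusted p = 0.0587).

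psme4 encodes PA200, a large activator held as a pair of copies. psme4 (ENSDARG00000087911) measured 13.7, 22.6, 16.0, 14.1 and 13.7 CPM in wild type and 9.85, 9.26, 8.62, 9.91 and 10.4 CPM in aldh3a1 knockouts. It measured 17.9, 14.2, 12.4, 14.5 and 14.6 CPM in glo1 knockouts and 11.3, 12.9, 14.9, 11.5 and 9.06 CPM in double knockouts. aldh3a1 knockouts lay below wild type, and the second wild type library stood far above the rest. The changes were -0.74 (SE 0.13, edgeR adjusted p = 5.16e-05) in aldh3a1 knockouts and -0.43 (SE 0.13, adjusted p = 0.0100) in double knockouts. Without the second wild type library the double knockout value was -0.27 and did not pass (adjusted p = 0.0556). psme4 (ENSDARG00000018742) stood at -0.06, -0.02 and -0.08 and did not pass.

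The interferon-responsive activator genes psme1 and psme2 were expressed at low levels, with wild type means of 4.46 and 2.72 CPM. The inhibitor psmf1 averaged 10.4 CPM in wild type. psme1 was -0.41 (SE 0.16, edgeR adjusted p = 0.0311) in aldh3a1 knockouts, from 3.75 to 4.95 CPM in wild type to 2.58 to 4.52 CPM, and lost the call without any of 6 single libraries. psme2 (-0.14, -0.29 and -0.20) and psmf1 (0.15, 0.16 and 0.07) did not pass in any comparison with wild type.

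Of the assembly factors, 5 of 7 rose in aldh3a1 knockouts, 1 in glo1 knockouts and 4 in double knockouts, where 1 fell. Over all genes 29.4%, 14.6% and 23.9% rose in these genotypes, and 26.4% fell in double knockouts. psmg3, a chaperone of the alpha ring, measured 14.4, 14.4, 12.6, 15.4 and 16.8 CPM in wild type and 21.2, 18.7, 17.4, 21.9 and 21.6 CPM in aldh3a1 knockouts. It measured 17.1, 18.8, 14.8, 17.4 and 17.0 CPM in glo1 knockouts and 18.1, 18.3, 17.9, 18.0 and 17.8 CPM in double knockouts. aldh3a1 and double knockouts did not overlap with wild type. The rises were 0.45 (SE 0.08, edgeR adjusted p = 3.17e-05), 0.21 (SE 0.08, adjusted p = 0.0484) and 0.29 (SE 0.08, adjusted p = 0.00433). The glo1 knockout call was lost without any of 8 single libraries, and with library size alone neither it (0.11) nor the double knockout value (0.13) passed. psmg1, another assembly factor, rose by 0.28 (SE 0.07, adjusted p = 0.000774) in aldh3a1 and 0.24 (SE 0.07, adjusted p = 0.00335) in double knockouts. The latter was 0.09 and did not pass with library size alone. psmg2 was 0.22 higher in aldh3a1 knockouts (adjusted p = 0.0432), lost without any of 8 single libraries.

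The base chaperones psmd10, psmd9 and psmd5 did not move alike. psmd10 (gankyrin) measured 6.73, 8.33, 7.77, 7.96 and 7.08 CPM in wild type and 10.7, 9.63, 11.8, 10.7 and 12.6 CPM in aldh3a1 knockouts. It measured 9.53, 8.03, 7.98, 8.45 and 8.81 CPM in glo1 knockouts and 8.74, 10.6, 8.73, 9.58 and 9.15 CPM in double knockouts. aldh3a1 and double knockouts stood above wild type and glo1 knockouts overlapped with it. The rises were 0.55 (SE 0.09, edgeR adjusted p = 1.59e-05) and 0.31 (SE 0.09, adjusted p = 0.00815). psmd9 rose by 0.39 (SE 0.10, adjusted p = 0.00113) in aldh3a1 knockouts and by 0.32 (SE 0.10, adjusted p = 0.00741) in double knockouts. When scaled by library size alone the double knockout values of psmd10 (0.15) and psmd9 (0.17) did not pass. psmd5 fell by 0.28 in double knockouts (SE 0.09, adjusted p = 0.00984). pomp, the maturation factor of the core, stood at 0.01, -0.10 and -0.08 and did not pass.

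Of the name matches that encode no subunit, psme3ip1 rose by 0.20 (SE 0.06, edgeR adjusted p = 0.00323) in aldh3a1 knockouts and by 0.18 (SE 0.06, adjusted p = 0.0114) in double knockouts, at 0.10 and 0.02 with library size alone, where neither passed. psmc3ip was 0.31 higher in aldh3a1 knockouts (adjusted p = 0.0362), lost without any of 7 single libraries. Without these 2 genes, 23 of 55 tested members rose and 7 fell in aldh3a1 knockouts, and 10 rose and 14 fell in double knockouts.

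Zebrafish hold several proteasome subunits as a pair of genes, and the mix within a pair needs no scaling between libraries. Shares within 6 pairs, chosen after values were seen, were compared by exact two-sided permutation tests in 30 tests. psma2 took 53.5% ± 1.15 of the counts of psma2 and psma2a in wild type, 48.4% ± 1.42 in aldh3a1 knockouts and 50.2% ± 0.538 in double knockouts (SD, n = 5; exact p = 0.00794 and adjusted 0.0397 for each against wild type). psmd4 took 25.0% ± 1.21 of psmd4 and psmd4b in wild type, 18.4% ± 1.60 in aldh3a1 knockouts and 20.3% ± 1.78 in double knockouts (same exact and adjusted p). In aldh3a1 knockouts the share of psmd11 (ENSDARG00000060150) rose from 46.0% to 51.8% and that of psme4 (ENSDARG00000087911) fell from 19.7% to 13.5% (same exact and adjusted p). The other 24 tests, which include all for the psma6 and psmc1 pairs, did not pass, at adjusted p from 0.0595 to 0.968.

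Double knockouts were then set against each single knockout. Against aldh3a1 knockouts, 12 of 57 members were lower and 0 higher, where 11.6% and 11.1% of all genes were called in these directions. The median was -0.09. At an unadjusted edgeR p under 0.05 there were 1 higher and 20 lower members, but the share of all genes at that limit was not counted. DESeq2 called 13 lower and 0 higher. With library size alone, 17 were lower and 0 higher; the share of higher genes among all called genes moved from 48.8% to 36.8%. The lower members included psme3 (-0.35, SE 0.07, edgeR adjusted p = 0.000708), psmd8 (-0.28, SE 0.06, adjusted p = 0.00147) and the ATPase psmc3 (-0.24, SE 0.06, adjusted p = 0.00359). psma5 (-0.22), psma1 (-0.21), psma2a (-0.19), psmb6 (-0.17) and sem1 (-0.20) were among them. The other 4 were psmd4b (-0.23), psmc1 (-0.22), adrm1 (-0.20) and psmd11 (ENSDARG00000060150) (-0.20). Of the 12, the calls of psma2a, psmc1, psmd4b, psmd11, psmb6 and sem1 were lost without at least 1 single library. Without the third aldh3a1 knockout library 8 were lower. psmd2 (ENSDARG00000103190) at 0.19 (SE 0.13, adjusted p = 0.299) and psmd7 at 0.13 (SE 0.09, adjusted p = 0.346) did not pass.

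Against glo1 knockouts, 5 of 57 members were lower and 0 higher, where 6.82% and 4.52% of all genes were called. At an unadjusted edgeR p under 0.05, 9 were lower and 5 higher, again without a count over all genes. DESeq2 also called 5 lower and 0 higher. Under library-size scaling, 6 were lower and 0 higher; over all genes the share of higher calls moved from 39.8% to 22.8%. The 5 were psmd2 (ENSDARG00000103190) at -0.76 (SE 0.12, edgeR adjusted p = 0.000407), psmd7 at -0.36 (SE 0.09, adjusted p = 0.0142), psmd2 (ENSDARG00000099653) at -0.33 (SE 0.07, adjusted p = 0.00659), psmd4 at -0.31 (SE 0.10, adjusted p = 0.0407) and psmd12 at -0.22 (SE 0.06, adjusted p = 0.0141). All are base or lid subunits, but 5 of 57 is close to the share of all genes called lower, so no pattern by role is drawn. Reads of both psmd2 copies may also be shared. psmd4 lost the call without any of 8 single libraries.

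The interaction is the change in double knockouts minus the sum of the changes in both single knockouts, on the log2 scale. It was called below 0 for 13 members and above 0 for 3, where 16.9% and 18.7% of all genes were called in these directions. Its median was -0.13 for members and 0.02 for all genes. Called or not, the estimate was below 0 for 45 members and above 0 for 12, against 10720 and 11514 of all genes. Each of the 13 was called higher in aldh3a1 knockouts than in wild type. That difference enters the interaction with the opposite sign, so the overlap is no separate result. The values of psma4, psmb5 and psmb7 (-0.22, -0.24 and -0.20) lost the call without any of 12, 7 and 12 single libraries. Among them were psme3 (-0.63, SE 0.10, edgeR adjusted p = 5.27e-05), psma2a (-0.45, SE 0.09, adjusted p = 0.000386), sem1 (-0.42, SE 0.08, adjusted p = 0.000570), psma1 (-0.40, SE 0.07, adjusted p = 0.000208) and psmb6 (-0.33, SE 0.07, adjusted p = 0.00116). The 3 called above 0 were psmd2 (ENSDARG00000103190) at 1.09 (SE 0.17, edgeR adjusted p = 7.04e-05), psmd7 at 0.45 (SE 0.13, adjusted p = 0.0107) and psmd2 (ENSDARG00000099653) at 0.28 (SE 0.11, adjusted p = 0.0425). These 3 had fallen in both single knockouts and fell by less than the sum. The call of psmd2 (ENSDARG00000099653) was lost without any of 11 single libraries. Without the first glo1 knockout library, 5 members were called above 0.

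**Figure D5:**
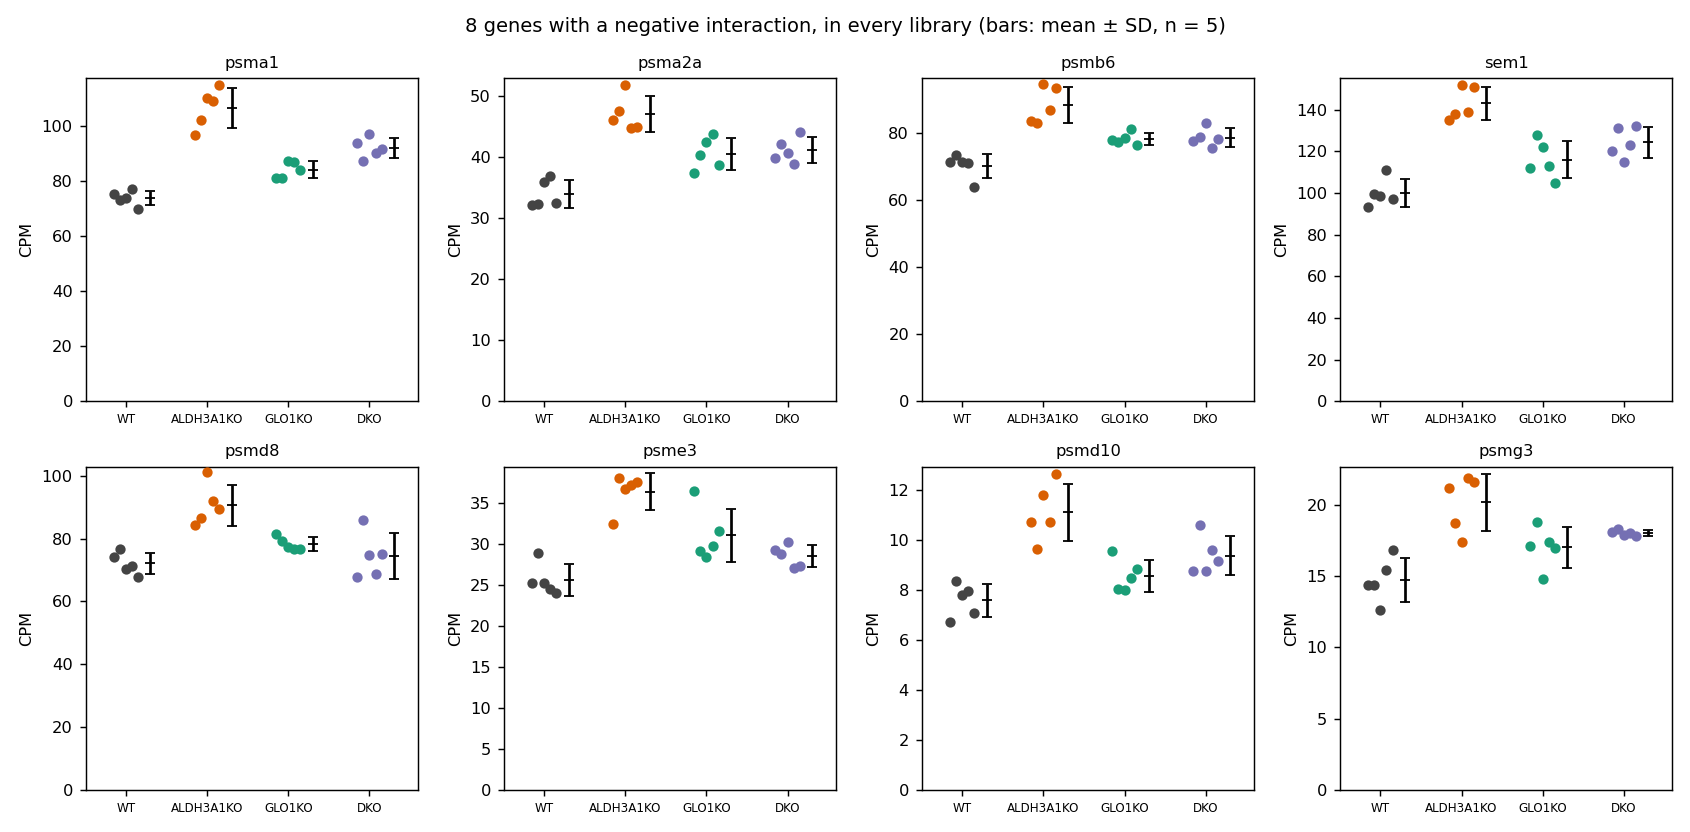
CPM (vertical axes from 0) of 8 members with an interaction below 0 in every library of the 4 genotypes, with bars for mean ± SD of 5 libraries. aldh3a1 knockouts hold the highest mean in each panel, and double knockouts sit nearer to glo1 knockouts; for psmd8 the double knockout libraries run from 67.7 to 86.0 CPM, around the wild type range of 67.9 to 76.7.

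Genes that act with the proteasome were counted from gene lists. Of 27 genes for ubiquitin, substrate delivery and bound factors, 9 rose and 7 fell in aldh3a1 knockouts, 8 rose and 2 fell in glo1 knockouts and 11 rose and 6 fell in double knockouts, with medians of 0.00, 0.05 and -0.02. Over all genes 29.4% rose and 32.0% fell in aldh3a1 knockouts, 14.6% and 18.1% in glo1 knockouts and 23.9% and 26.4% in double knockouts, which is the background for this and the following lists. rps27a, which encodes ubiquitin fused to a ribosomal protein, rose by 0.69 (SE 0.06, edgeR adjusted p = 1.90e-09) in aldh3a1 knockouts and by 0.67 (SE 0.06, adjusted p = 1.40e-08) in double knockouts. The genes for cytosolic ribosomal proteins, listed without rps27a, had median changes of 0.67 and 0.55 in these genotypes. The polyubiquitin gene ubb (ENSDARG00000093313) was at 0.00 in aldh3a1 knockouts. It rose by 0.50 (SE 0.07, edgeR adjusted p = 3.32e-05) in glo1 and 0.62 (SE 0.07, adjusted p = 2.61e-07) in double knockouts. ubb (ENSDARG00000002369), which shares the symbol, went the other way. It was -0.36 (SE 0.07, adjusted p = 0.000143) in aldh3a1 and -0.21 (SE 0.07, adjusted p = 0.0225) in double knockouts. In glo1 knockouts this copy was -0.17 (adjusted p = 0.0837) and did not pass. The ubiquitin-activating enzyme uba6 fell by 0.44 (SE 0.11, adjusted p = 0.000754) in aldh3a1 and 0.54 (SE 0.11, adjusted p = 0.000158) in double knockouts. nploc4, a cofactor of the unfoldase vcp, fell by 0.42 and 0.38 (SE 0.08 each) in the same genotypes. midn, which in mammals carries substrates to the proteasome without ubiquitin, rose by 0.37, 0.47 and 0.41 (SE 0.10 each, adjusted p = 0.00224, 0.000997 and 0.00129) in aldh3a1, glo1 and double knockouts. ecpas, a scaffold that binds proteasomes, fell by 0.21 (SE 0.06, adjusted p = 0.00518) in double knockouts. In glo1 knockouts ecpas was -0.19 (SE 0.06, adjusted p = 0.0178), a call lost without the second wild type library (-0.14, adjusted p = 0.0731), and in aldh3a1 knockouts it was -0.03 and did not pass. The polyubiquitin gene ubc was -0.15 (adjusted p = 0.0390) in glo1 knockouts, lost without any of 6 single libraries, and did not pass in aldh3a1 (-0.05) or double knockouts (-0.13).

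akirin2, named here after its values were seen, guides proteasomes into the nucleus in human cells. It measured 37.8, 43.0, 43.0, 41.8 and 39.4 CPM in wild type and 60.1, 56.1, 59.5, 67.0 and 62.3 CPM in aldh3a1 knockouts. It measured 55.8, 54.6, 51.2, 53.1 and 50.9 CPM in glo1 knockouts and 56.0, 57.6, 52.9, 51.3 and 53.1 CPM in double knockouts. All 15 knockout libraries were above all wild type libraries, with rises of 0.57, 0.37 and 0.40 (SE 0.06 each; edgeR adjusted p = 5.86e-09, 4.07e-05 and 2.13e-06).

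Of 21 regulators of proteasome genes, 4 rose and 5 fell in aldh3a1 knockouts, 2 rose and 3 fell in glo1 knockouts and 3 rose and 5 fell in double knockouts, with medians of -0.02, -0.05 and -0.05; the shares called in aldh3a1 knockouts were below those over all genes in both directions. nfe2l1, the transcription factor that drives proteasome genes in mammals, measured 13.2, 9.95, 9.86, 10.6 and 10.4 CPM in wild type and 3.17, 2.69, 1.29, 1.72 and 2.16 CPM in aldh3a1 knockouts. It measured 7.00, 5.56, 5.19, 5.54 and 5.11 CPM in glo1 knockouts and 4.39, 4.93, 7.12, 4.92 and 3.30 CPM in double knockouts. All knockout libraries lay below wild type, and aldh3a1 knockouts below all others. The changes were -2.29 (SE 0.20, edgeR adjusted p = 1.57e-09), -0.93 (SE 0.18, adjusted p = 0.000524) and -1.13 (SE 0.18, adjusted p = 1.91e-05), and double knockouts were 1.16 above aldh3a1 knockouts (SE 0.20, adjusted p = 0.000203). Its paralog nfe2l1b was more abundant, with a wild type mean of 22.7 CPM against 10.8 CPM for nfe2l1. nfe2l1b ran from 20.6 to 24.0 CPM in wild type and from 15.7 to 24.9 CPM in aldh3a1 knockouts. It ran from 18.4 to 20.6 CPM in glo1 knockouts and from 15.9 to 22.2 CPM in double knockouts. Its changes were -0.18, -0.22 and -0.27 (SE 0.11 each). The last passed at edgeR adjusted p = 0.0392 and was lost without any of 6 single libraries. The sum of nfe2l1 and nfe2l1b was not tested, nor which of them drives proteasome genes in the larvae.

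Small Maf proteins pair with NFE2L1. The copies mafg (ENSDARG00000018109) and mafg (ENSDARG00000100097) fell by 1.17 and 1.18 in aldh3a1 knockouts and by 1.72 (SE 0.28, edgeR adjusted p = 1.85e-05) and 1.23 (SE 0.18, adjusted p = 4.36e-06) in double knockouts. In glo1 knockouts mafg (ENSDARG00000100097) fell by 0.66 (adjusted p = 0.00551). There mafg (ENSDARG00000018109) was -0.78 (SE 0.26, adjusted p = 0.0245), lost without any of 3 single libraries. mafk fell by 1.26 (SE 0.27, adjusted p = 0.000323) in aldh3a1 and 0.82 (SE 0.27, adjusted p = 0.0121) in double knockouts. maff went the other way, by 0.39, 0.17 and 0.30 (SE 0.06 each), and the glo1 knockout value was lost without any of 4 single libraries. Wild type means were 2.35 and 6.39 CPM for the mafg copies in the order above, 0.945 CPM for mafk and 40.8 CPM for maff. maff averaged 53.4, 46.0 and 50.4 CPM in aldh3a1, glo1 and double knockouts. ngly1, which removes sugars from NFE2L1 in mammals, was 0.24 higher (SE 0.09, adjusted p = 0.0184) in aldh3a1 knockouts, lost without any of 3 single libraries. keap1, the adaptor that marks NFE2L2 for degradation, rose by 0.32 (SE 0.07, adjusted p = 0.000779) in double knockouts, at 0.17 and not passing with library size alone. Its paralog keap1a was at 0.11 there (SE 0.12, edgeR adjusted p = 0.453) and did not pass. nfya (ENSDARG00000042004) was 0.16 higher in glo1 knockouts (adjusted p = 0.0450), lost without any of 7 single libraries. The other ID of that symbol, nfya (ENSDARG00000001621), was at -0.16 there (SE 0.08, edgeR adjusted p = 0.144) and did not pass.

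Markers of tissues and of translation moved with the genotypes, and their part in the proteasome changes was not tested. Of 32 skeletal muscle genes, 30 fell in aldh3a1 knockouts, 5 rose and 5 fell in glo1 knockouts, and 5 rose and 10 fell in double knockouts. Their summed level ran from 85002 to 104312 CPM in wild type, 43782 to 70154 in aldh3a1 knockouts, 94699 to 106745 in glo1 knockouts and 83726 to 114307 in double knockouts. Of 27 liver genes, 23, 20 and 24 fell in aldh3a1, glo1 and double knockouts, and their summed level ran from 1918 to 4645 CPM in wild type, 739 to 1247 in aldh3a1 knockouts, 1457 to 1730.4 in glo1 knockouts and 1045 to 1493 in double knockouts. Of 75 genes for cytosolic ribosomal proteins, 74, 69 and 74 rose. They summed to 69885 to 82636 CPM in wild type, 106788 to 132690.1 in aldh3a1 knockouts, 85548 to 97879.6 in glo1 knockouts and 103840.2 to 112333 in double knockouts. From lowest to highest the sum ran from wild type over glo1 and double to aldh3a1 knockouts in its group ranges, with double knockouts partly inside the aldh3a1 range.

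Immune markers bear on the inducible subunits. Of 26 leukocyte genes, 3, 4 and 6 fell and 0 rose in aldh3a1, glo1 and double knockouts, each a smaller share than the 32.0%, 18.1% and 26.4% that fell over all genes, and their summed level was 40.7 to 67.7 CPM in wild type, 36.5 to 46.5 in aldh3a1 knockouts, 36.3 to 44.9 in glo1 knockouts and 38.9 to 48.0 in double knockouts. Of 18 genes for interferon and antigen presentation, 1 rose and 4 fell, 2 rose and 0 fell, and 3 rose and 2 fell. These summed to 73.4 to 98.7 CPM in wild type, 80.4 to 104 in aldh3a1 knockouts, 88.6 to 101 in glo1 knockouts and 94.6 to 106 in double knockouts, and their part in the psmb10 values was not tested.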

How the data were processed

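Per the labels' protocols, an RNeasy kit gave total RNA from larvae, and mRNA libraries that keep the strand were built for DNBSEQ. The deposited table holds counts per gene, which the authors made with featureCounts 2.0.3 on GRCz11, per the submitters' processing notes; no source used here names the aligner, annotation or strand setting, so reads of near-identical copies and of overlapping genes may be shared. Counts were fitted with edgeR 4.0.16 (limma 3.58.1, R 4.3.3), using TMM scaling, its default filter on low counts and the robust quasi-likelihood test over all 20 libraries with 1 mean per genotype. P-values were adjusted by Benjamini-Hochberg over all 22234 tested genes, which held 99.97% of the counts, in each of 6 comparisons. The common biological coefficient of variation was 0.130. Summed psmd2 copies and shares within pairs were compared by exact two-sided permutation tests.

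Alternatives were other scalings (RLE, upper quartile, library size alone, the median of all genes at 0), DESeq2 1.42.0, limma-voom with sample weights, no count filter, at least 10 counts in 10 libraries, no robust estimation, only the genotypes compared, the replicate number as a block, a fold threshold of 1.2 and each library left out. The scripts were tested on simulated data. Figures used matplotlib 3.10.9.

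The rule for named genes took both psmd2 copies, every inducible core subunit and, per comparison, the 3 called members with the largest change in each direction, and of the other lists the 2 largest in each direction; marker lists are given here as counts and sums only. A gene that this rule takes is not reported here. The remaining members are named so that each role is complete, which was decided after their values were seen. Members and lists were chosen with earlier results of these data known. Intervals on low counts cover counting error only. No sequences are printed.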

Additional observations from a re-analysis of the deposited data

Results flagged for a closer look

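In 15 of 228 groups (57 tested members in 4 genotypes) 1 library stood apart from the other 4; chance alone sets a library apart in about 1 group in 20. In CPM, the third glo1 knockout library was low for psma2 (38.7), psma8 (121), psmb10 (13.9) and psmb9 (0.114), and the fifth for psme2 (1.81). The third aldh3a1 knockout library was high for psmb1 (81.4), psmd12 (64.2) and psmd6 (85.0). In the same genotype the first library was low for psmd13 (55.3) and psme3 (32.5), and the fifth was high for psmg1 (22.5). In wild type the fifth library was low for psmb6 (63.8), and the second was high for psme3 (28.9) and for psme4 (ENSDARG00000087911) (22.6). The third double knockout library was high for psmd13 (67.6).

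The effect of aldh3a1 loss in glo1 knockouts differed from that in larvae with intact glo1 for 16 of 57 members by the edgeR interaction test. Over all genes 16.9% were called below 0 and 18.7% above 0. Both directions together, members were thus called no more often than all genes. The log2 difference was below 0 for psme3 (-0.63), psma2a (-0.45), sem1 (-0.42), psmd10 (-0.42), psmd8 (-0.40), psma1 (-0.40), psmg3 (-0.37), psmb6 (-0.33), psmd11 (ENSDARG00000060150) (-0.30), psma5 (-0.27), psmb5 (-0.24), psma4 (-0.22) and psmb7 (-0.20). It was above 0 for psmd2 (ENSDARG00000099653) (0.28), psmd7 (0.45) and psmd2 (ENSDARG00000103190) (1.09).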

How the results depend on the processing

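Of 99 called member values, 21 held under every alternative, 28 were lost without at least 1 single library, 78 were lost under at least 1 other alternative (42 when the fold threshold is left out), and 0 turned direction. Scaling to library size alone gave 11 higher and 14 lower members in aldh3a1 knockouts, 0 and 11 in glo1 knockouts and 2 and 27 in double knockouts. Over all called genes the share of higher genes moved as well. It went from 47.9% to 36.0%, from 44.6% to 21.9% and from 47.5% to 23.7%, so this shift was not particular to members. Upper quartile scaling gave 17 higher and 11 lower in aldh3a1 knockouts, where the main fit gave 25 and 7, and 5 lower in glo1 knockouts. The share of higher genes among all called genes was then 42.6% and 40.7% in these genotypes. For the alternatives other than scaling, and with single libraries left out, counts over all genes are not given here. Those member counts therefore stand without a background. In aldh3a1 knockouts limma-voom gave 18 higher, and no count filter and only the genotypes compared gave 19 higher each. In glo1 knockouts limma-voom gave 5 lower. A test against a fold of 1.2 left 7 higher in aldh3a1 knockouts, and 0 higher and 1 lower in glo1 knockouts. In double knockouts it left 0 higher and 4 lower. It left 0 lower between double and aldh3a1 knockouts and 1 lower between double and glo1 knockouts. At that fold an interaction was called above 0 for 1 member and below 0 for 2. That threshold asks for a larger change; the cause of the other shifts was not tested.

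Leaving out each library gave 17 to 24 higher and 6 to 9 lower members in aldh3a1 knockouts, 5 to 7 and 3 to 5 in glo1 knockouts, and 10 to 12 and 10 to 16 in double knockouts. It gave 0 to 1 higher and 8 to 15 lower between double and aldh3a1 knockouts, and 0 higher and 4 to 5 lower between double and glo1 knockouts. Interactions were then called above 0 for 2 to 5 and below 0 for 10 to 15 members.

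Replicate numbers did not pair the libraries: 3 of 30 same-numbered pairs correlated above 0.1 (median 0.00, range -0.14 to 0.22), and 16 of 60 best matches had the same number. As a block they ended the calls of psma8 (0.11, edgeR adjusted p = 0.0630) and psmd4b (0.16, adjusted p = 0.0533) in aldh3a1 knockouts. Paired by number, the psmd2 sum differed by -0.98, -0.49, -0.93 and -0.44 and the copy's share by -17.57, -9.52, -15.35 and -5.83 points, at an exact adjusted p of 0.0781, since 5 pairs cannot go below 0.0625.

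Values that were not called and changed sign were small. Between double and aldh3a1 knockouts, psmd2 (ENSDARG00000099653) was 0.02 (upper quartile), 0.00 (limma-voom), 0.01 (no filter) and 0.01 (only these genotypes), and -0.06 to 0.05 without single libraries. In that comparison psmb10 was -0.03 with library size alone and -0.02 to 0.04 without single libraries, psma6l was -0.17 to 0.13, and the psmd2 sum was 0.00 with library size alone and -0.01 to 0.09 without single libraries. Between double and glo1 knockouts, psmb9 was -0.01 with library size alone and -0.16 to 0.15 without single libraries, and psma2a was -0.03 and -0.01 to 0.05. Against wild type, psmd8 in double knockouts was -0.11 with library size alone and -0.01 to 0.08 without single libraries, psme4 (ENSDARG00000087911) in glo1 knockouts was -0.20 to 0.04, and psmc3 in aldh3a1 knockouts was -0.05 with library size alone.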
